A study of Mus musculus with 76 samples.

Results

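DNA replication and nucleotide synthesis genes were followed across the 24 blood cell groups of a mouse study in which the transcription factor Hoxb5 was used to turn B cell precursors into T cells. The 49 genes were taken by name from the FPKM table (fragments per kilobase of transcript, scaled to the number of mapped fragments), and all 49 were found among its 37980 genes. They encode the MCM helicase and the proteins that load and start it, the polymerases, the sliding clamp and its loaders, enzymes that finish new strands, makers of deoxynucleotides, and regulators of entry into S phase. All of them passed the filter on low values, so every gene of the set was tested.

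All mice were C57BL/6, and their ages are not given in the sources used here. Pro/pre-B cells from bone marrow were infected with a Hoxb5 virus in culture, sorted and transplanted into sublethally irradiated recipients. The 9 induced groups were sorted from the marrow or thymus of these recipients: early T lineage progenitors of the marrow (induced BM ETP) and of the thymus (induced thymic ETP), the double negative stages DN1 to DN4, double positive cells (DP), and CD4 and CD8 single positive cells (SP). The 15 natural groups carry no such label of induction. They comprise the same 9 T lineage stages, pro/pre-B cells, multipotent progenitors (MPP), stem cells of the blood (HSC), and mature B, T and myeloid cells. Each library came from 1000 sorted cells, and a group held 2 to 4 libraries. Nothing in the labels tells whether replicate libraries derive from separate animals, so p-values measure only the spread among these libraries, which may be technical.

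Of 76 libraries, 75 were used, because the third pro/pre-B library was an exact copy of the first. Library totals ran from 667660 to 2004005 FPKM. Steps between low values put the depth of the libraries at 0.989 to 11.2 fragments per FPKM and kilobase, with a median of 4.33. Marker genes held several points that touch the comparisons. Natural BM ETP libraries had 18742 to 30656 FPKM summed over 10 myeloid markers, and the T lineage genes Cd3e, Cd3g and Cd2 were listed at 0 in all 3 of them. Induced BM ETP libraries had 11026 to 11139 FPKM summed over 10 B lineage markers, against 69.1 to 87.4 in natural BM ETP libraries, and Cd3e, Cd3d, Cd3g and Bcl11b were listed at 0 in both induced libraries. Cd3e and Cd3g, which define T cells, were therefore at 0 in both groups labelled BM ETP. In bulk libraries, fewer cells of a type and less RNA per cell cannot be told apart.

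Before a cell copies its DNA, the origin recognition complex, Cdc6 and Cdt1 place MCM rings on chromatin in G1. At the start of S phase, Mcm10, Cdc45 and the GINS complex turn the rings into active helicases, and polymerases follow behind them. Many of these genes are under the control of E2F factors and are switched on together as cells leave quiescence. In the thymus, cells that pass the first selection of the T cell receptor chains divide rapidly, and most of their descendants then come to rest before they mature.

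RefSeq promoter windows (GRCm38.p6, 250 bases before to 50 after the start) were given for 40 of the 49 genes, with 46 windows in all. The E2F letters TTTCGCGC, TTTGGCGC, TTTCCCGC or TTTGCCGC, on either strand and with overlaps counted separately, were present in 16 of the 46 windows (34.8%), against 2.27% of all 32841 windows. The CCAAT box (CCAAT, either strand) was present in 56.5% of the windows of the set and 37.4% of all windows. The letters TTTGAA, a cell cycle element of many mitotic genes, were present in 15.2% and 17.9%. A match describes the letters only. In 8 genes the E2F letters lay before the start, and in 8 others only after it. Stretches of 5 of the first kind are shown because they belong to licensing and helicase genes described below, each 5′ to 3′ along its gene with the matches in capitals. In Mcm6 and Mcm5, matches on the 2 strands overlap and form 1 longer run of capitals. They lie at chr1:128359741-128359840 (minus strand) for Mcm6, chr8:75109331-75109392 (plus) for Mcm5, chr5:138172016-138172073 (minus) for Mcm7, chr4:108579402-108579453 (plus) for Orc1 and chr11:98907988-98908045 (plus) for Cdc6.
Mcm6: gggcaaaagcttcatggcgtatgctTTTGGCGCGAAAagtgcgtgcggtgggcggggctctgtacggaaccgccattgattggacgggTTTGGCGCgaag
Mcm5: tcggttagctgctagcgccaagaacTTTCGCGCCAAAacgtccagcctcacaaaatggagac
Mcm7: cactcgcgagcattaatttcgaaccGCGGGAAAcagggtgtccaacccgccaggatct
Orc1: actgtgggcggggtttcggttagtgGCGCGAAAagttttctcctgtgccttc
Cdc6: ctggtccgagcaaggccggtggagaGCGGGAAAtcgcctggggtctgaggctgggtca

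The set was summarised in each library by its mean log2(FPKM + 1). Induced CD8 SP cells had the highest group mean, 6.79 ± 0.07 (SD, n = 4). They were followed by natural DN4 cells at 6.59 ± 0.05 (n = 3), induced DN4 cells at 6.53 ± 0.01 (n = 4) and natural CD8 SP cells at 6.34 ± 0.03 (n = 3). Mature T cells (3.38 ± 0.29, n = 3) and mature B cells (3.61 ± 0.12, n = 4) were lowest, with MPP at 4.00 ± 0.16 (n = 4) next. Groups next to each other in this order had separate libraries at 7 of 23 places, and their libraries overlapped at the other 16. One unbroken run of overlapping neighbours went from pro/pre-B cells (5.81) through natural BM ETP, DP, DN3 and DN2 cells down to induced thymic ETP cells (4.98), so the order of neighbours within it is not resolved. Natural CD4 SP cells, at 4.51 to 4.76, lay near stem cells, at 4.43 to 4.57, while induced CD4 SP cells reached 6.03 to 6.30.

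**Figure D1:**
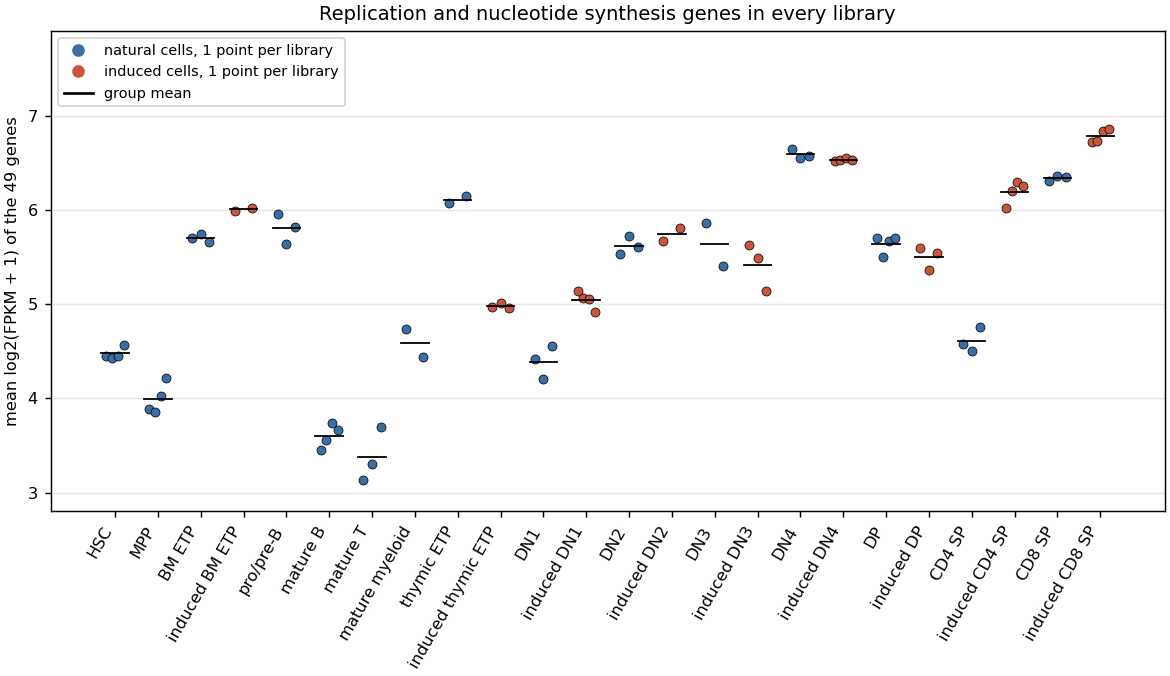
Mean log2(FPKM + 1) of the 49 genes (vertical axis) in each of 75 libraries, by cell group, with natural cells in blue, induced cells in red and bars at group means. Natural and induced libraries lie close together at DN2, DN4 and DP, and apart at BM ETP, thymic ETP, DN1, CD4 SP and CD8 SP.

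The single genes shared this order to different degrees. Of the 49, 32 had their highest group mean in induced CD8 SP cells, and 41 had their lowest in mature B (14), mature T (14) or mature myeloid cells (13). Across the 24 group means, Mcm7 (r = 0.97) and Rrm1, the large subunit of ribonucleotide reductase (r = 0.97), followed the mean of the other genes most closely. Fen1, the flap endonuclease of lagging strand synthesis (r = 0.43), and Rfc2, a clamp loader subunit (r = 0.47), followed it least. Fen1 was listed at a median of 2.41 FPKM, the lowest of the set, and peaked in mature myeloid cells, at 19.9 and 23.2 FPKM. Both mature myeloid libraries had the lowest depths, 0.989 and 0.992 fragments per FPKM and kilobase, and replicate 1 had the highest total, 2004005 FPKM. The part of this in the Fen1 peak and in the 13 genes lowest there was not tested. Other genes that departed were Pold2, the accessory subunit of polymerase delta (r = 0.59), Rpa1, the large subunit of the single-strand binding protein (r = 0.60), and E2f2, an activating E2F factor (r = 0.61). These correlations are descriptions over 24 points that share libraries between genes.

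FPKM values are scaled to transcript length, and other differences in how genes are measured were not checked. Pcna, the sliding clamp, had the highest median (933 FPKM, range 139 to 2976), followed by Dut, which removes dUTP from the nucleotide pool (364 FPKM). The 6 subunits of the MCM ring, which assemble in equal numbers, were not listed at equal levels. Within a library the highest of the 6 exceeded the lowest by 1.40 to 5.45 times, with a median of 2.40. Mcm6 was the highest of the 6 in 62 of 75 libraries and Mcm5 in 8. Among the genes outside the set with the most similar pattern over the 24 group means were Cenph, Pask and Gmnn (r = 0.96 each) and Actl6a, Brca1, Pidd1 and Poc1a (r = 0.95 each). Gmnn is the inhibitor of Cdt1.

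**Figure D2:**
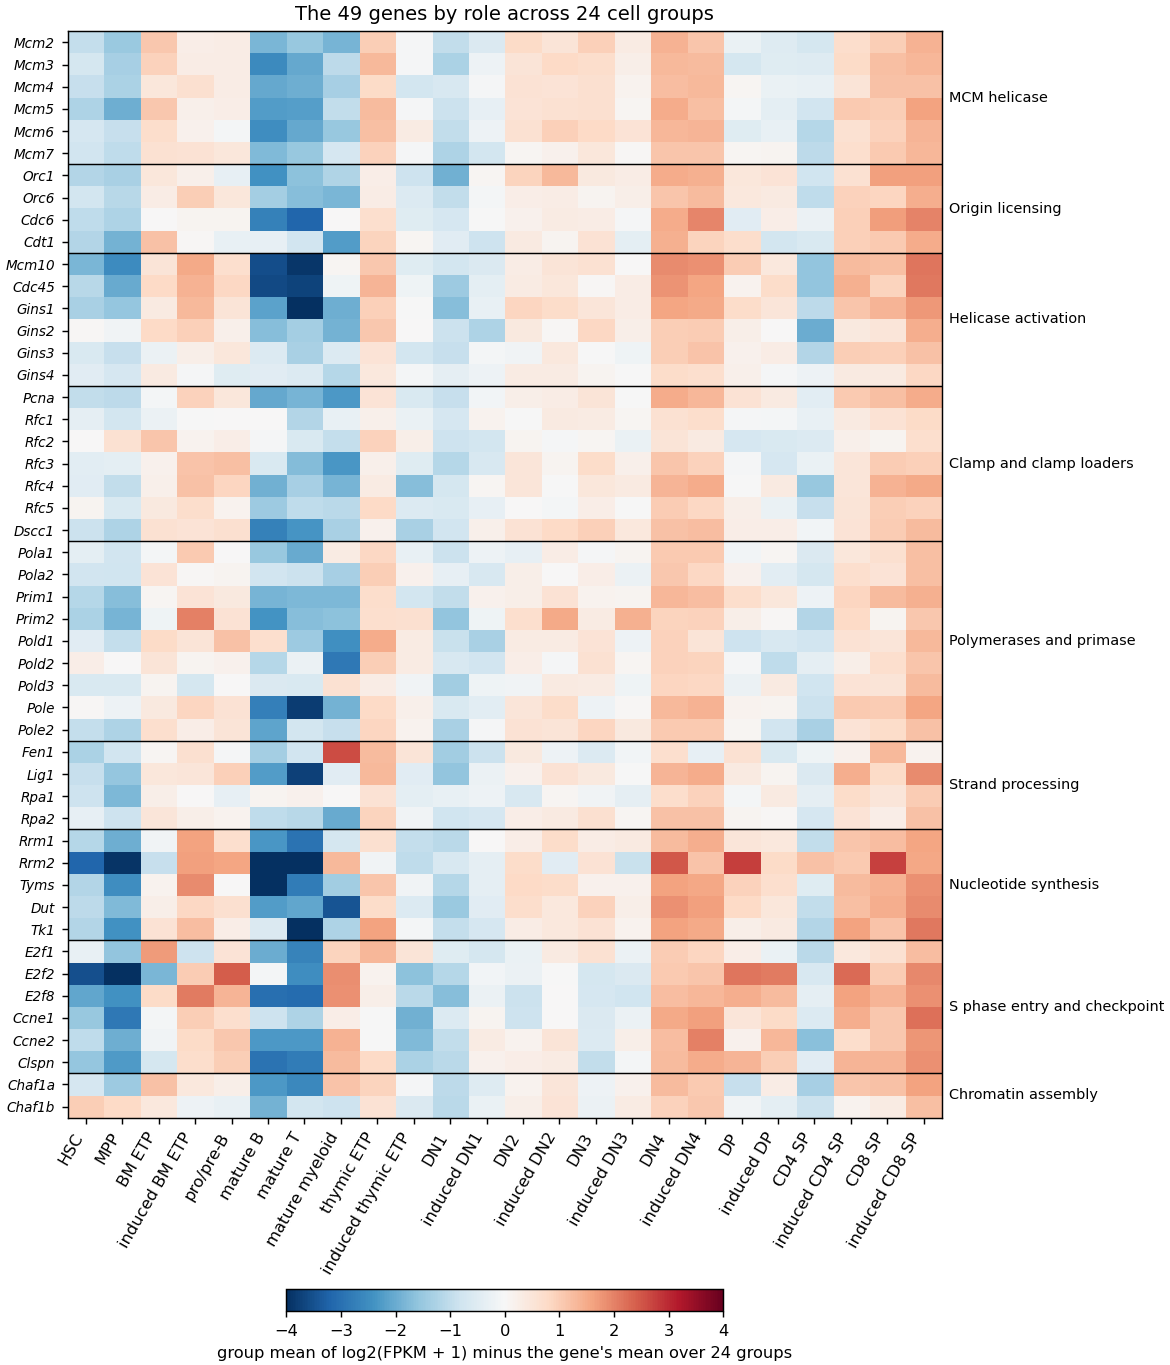
Group means of log2(FPKM + 1) for each gene (rows, ordered by role) in 24 groups (columns), after subtraction of the gene's mean over the groups; red is higher and blue lower. Mature B and mature T columns are blue for most genes, DN4 and induced CD8 SP columns red, while Rrm2, E2f2 and Fen1 follow patterns of their own.

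In natural cells, the first comparison asked how the set differed between stem cells and multipotent progenitors. MPP had lower levels than HSC for 11 of the 49 genes and a higher level for 1, with a median log2 fold change of -0.49. Over all 17416 genes tested, 5.01% were called lower and 3.12% higher, and their median change was 0. Calls rest on limma's moderated test on log2(FPKM + 1), at a Benjamini-Hochberg adjusted p below 0.05 over all genes tested. Nucleotide synthesis genes fell most often, with Rrm1, Tyms, Dut and Tk1 called out of 5. Tk1, the thymidine salvage kinase, had 29.8, 28.9, 39.3 and 42.6 FPKM in HSC and 13.6, 5.68, 20.9 and 22.0 in MPP. All 4 stem cell libraries lay above all 4 progenitor libraries (log2 fold change -1.26 ± 0.26 SE, limma adjusted p = 0.00035). Tyms, thymidylate synthase, fell by 1.32 ± 0.39 (adjusted p = 0.021) and E2f1, an activating E2F factor, fell by 1.27 ± 0.42 (adjusted p = 0.049). Rfc2 was the 1 gene that rose, by 0.61 ± 0.17 (adjusted p = 0.014). Without HSC replicate 2, MPP replicate 1 or MPP replicate 2, 7 genes were called, and 5 were called when only these 2 groups were fitted.

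Mature B cells were set against pro/pre-B cells, the dividing precursors from which the induced cells were made. Of the 49 genes, 39 fell and none rose, with a median log2 fold change of -2.33. The share of all genes called lower was 13.4%, and 11.5% were called higher. All 6 MCM genes and all 5 nucleotide synthesis genes fell. Rrm2, the small subunit of ribonucleotide reductase, was at 123, 97.3 and 97.6 FPKM in pro/pre-B libraries and at 1.15 and 8.75 in 2 mature B libraries, with the other 2 listed at 0. Its pro/pre-B libraries lay far above every mature B library (-5.63 ± 0.41, adjusted p = 1.1e-17). Cdc45, which activates the helicase, fell by 4.46 ± 0.40 from a pro/pre-B range of 43.1 to 75.0 FPKM (adjusted p = 3.6e-14), and E2f8, a repressing E2F factor, fell by 4.38 ± 0.33 (adjusted p = 4.3e-17). The genes not called were Cdt1, Gins3, Gins4, Rfc1, Rfc2, Pold1, Pold3, Fen1, Rpa1 and Ccne1. Cdt1, which brings the MCM rings to origins, had 55.6, 55.7, 71.2 and 79.1 FPKM in mature B cells and 89.3, 82.7 and 40.6 in pro/pre-B cells, and the groups overlapped. Pro/pre-B libraries ranged from 30.7 to 4610 FPKM summed over the 10 myeloid markers, and the part of this in the result was not tested.

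Between DN3 and DN4, the step at which thymocytes with a working receptor beta chain begin to divide, 16 genes rose and none fell, with a median log2 fold change of 0.91. Among all genes, 3.53% were called higher and 3.2% lower. Regulators of S phase rose most often, with E2f2, E2f8, Ccne2 and Clspn called out of 6. Clspn, the adaptor of the replication checkpoint, had 10.7 and 0.583 FPKM in DN3 and 22.3, 18.0 and 18.8 in DN4. Both DN3 libraries were below all 3 DN4 libraries, but they differed widely from each other (2.26 ± 0.39, adjusted p = 4.0e-05). Rrm2 had 115 and 23.3 FPKM in DN3 and 255, 172 and 173 in DN4 (1.89 ± 0.49, adjusted p = 0.0084), and E2f8 rose by 1.89 ± 0.39 (adjusted p = 0.00072). The count depended on the second DN3 library: without it, 1 gene was called. No gene was called when only these 2 groups were fitted.

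From DN4 to DP, 32 genes fell and 1 rose, with a median log2 fold change of -0.98. The share of all genes called lower was 12.8%, and 11.8% were called higher. All 6 MCM genes fell, as did 3 of 4 licensing genes, 6 of 7 clamp and clamp loader genes, 7 of 9 polymerase and primase genes and both chromatin assembly genes. Mcm3 had 244, 232 and 206 FPKM in DN4 and 83.1, 38, 69.7 and 43.1 in DP, with no overlap (-2.01 ± 0.21, adjusted p = 3.2e-11). Chaf1a, the large subunit of the chaperone that places histones on new DNA, had 17, 14 and 14.2 FPKM in DN4 and 1.68, 3.60, 2.90 and 2.30 in DP (-2.17 ± 0.32, adjusted p = 3.0e-07). Cdc6 fell by 1.93 ± 0.41 (adjusted p = 0.00019). None of the 6 S phase regulators was called lower, although their log2 fold changes ran from -1.08 to 1.09, with a median of -0.33. E2f2 instead rose, from 51.5, 44.7 and 40.7 FPKM to 98.4, 91.8, 83.3 and 120.4, and every DP library was above every DN4 library (1.09 ± 0.27, adjusted p = 0.0012). Rrm2 had 255, 172 and 173 FPKM in DN4 and 231, 251, 236 and 242 in DP, and was not called (0.29 ± 0.41, adjusted p = 0.76).

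The step from DP to natural CD4 SP cells gave 32 lower genes and none higher, with a median log2 fold change of -1.02 and a background of 13.5% of all genes called lower and 13.2% higher. All 5 nucleotide synthesis genes fell, as did 5 of 6 helicase activation genes and 5 of 6 S phase regulators. E2f2 went from 83.3 to 120.4 FPKM in the 4 DP libraries to 14, 13 and 13.3 in CD4 SP (-2.77 ± 0.27, adjusted p = 7.9e-13). Gins2, a GINS subunit, had 61.8, 46.8, 74.4 and 66.8 FPKM in DP and 12.1, 13.7 and 11.3 in CD4 SP. The 2 groups were far apart (-2.23 ± 0.17, adjusted p = 4.1e-16). Mcm10 fell by 2.60 ± 0.48 (adjusted p = 1.5e-05). Mcm3, Mcm4 and Cdc6 were among the 17 genes not called, as were both chromatin assembly genes. Fitted on these 2 groups alone, 11 genes were called.

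The step from DP to natural CD8 SP cells gave 21 higher genes and 1 lower, with a median log2 fold change of 0.70. Its order was taken from the stage names, in natural and induced cells alike, and was not tested. The mean of the set was 6.34 in natural CD8 SP, 6.59 in natural DN4 and 5.64 in natural DP cells. Among all genes, 10.7% were called higher and 13.2% lower. All 6 MCM genes and 6 of 7 clamp and clamp loader genes rose, while none of the 6 helicase activation genes was called. Cdc6 had 1.67, 7.29, 10.3 and 17.7 FPKM in DP and 28, 42.1 and 35.1 in CD8 SP. Every CD8 SP library was above every DP library (2.11 ± 0.41, adjusted p = 5.6e-05). Chaf1a rose by 2.09 ± 0.32 (adjusted p = 7.8e-07), to 13.4, 15.6 and 13.3 FPKM. Mcm3 rose by 1.90 ± 0.21 (adjusted p = 1.5e-10), to 217.5, 211 and 202 FPKM. E2f2 fell by 1.11 ± 0.27 (adjusted p = 0.0010), to 43.1, 39.4 and 52.3 FPKM. The CD8 SP libraries held 1187 to 1403 FPKM summed over 8 DP stage markers and 615 to 666 over 7 markers of mature single positive cells. The natural CD4 SP libraries held 141 to 163 and 1921 to 2097, and the natural DN4 libraries 447 to 520 and 169 to 203. The part of these levels in the results was not tested. The comparisons with DP share the DP libraries, so their values stand side by side and are not combined; fitted on DP and CD8 SP alone, 11 genes were called.

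Mitotic genes gave a further axis of the cell cycle. A list of 24 (Ccnb1, Cdc20, Aurka, Ube2c and others) followed the set over the 24 group means (r = 0.86), and 32 other replication genes followed it more closely (r = 0.97). At the DN4 to DP step 6 mitotic genes rose and none fell (median 0.61), against 11.8% of all genes called higher and 12.8% lower. Ube2c, which tags mitotic proteins for destruction, rose from a mean of 408 to 1448 FPKM (1.81 ± 0.49, adjusted p = 0.0038). Cenpa, the histone of centromeres, rose from 135 to 309.9 FPKM (1.15 ± 0.28, adjusted p = 0.0011). At the step from DP to CD8 SP, 3 of the 24 fell and none rose, a share of lower genes near the 13.2% among all genes. At the step from DP to CD4 SP, all 24 fell (median -2.67), with Cdc20 lowest, from a mean of 145 to 4.70 FPKM (-4.64 ± 0.44, adjusted p = 5.4e-13).

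**Figure D3:**
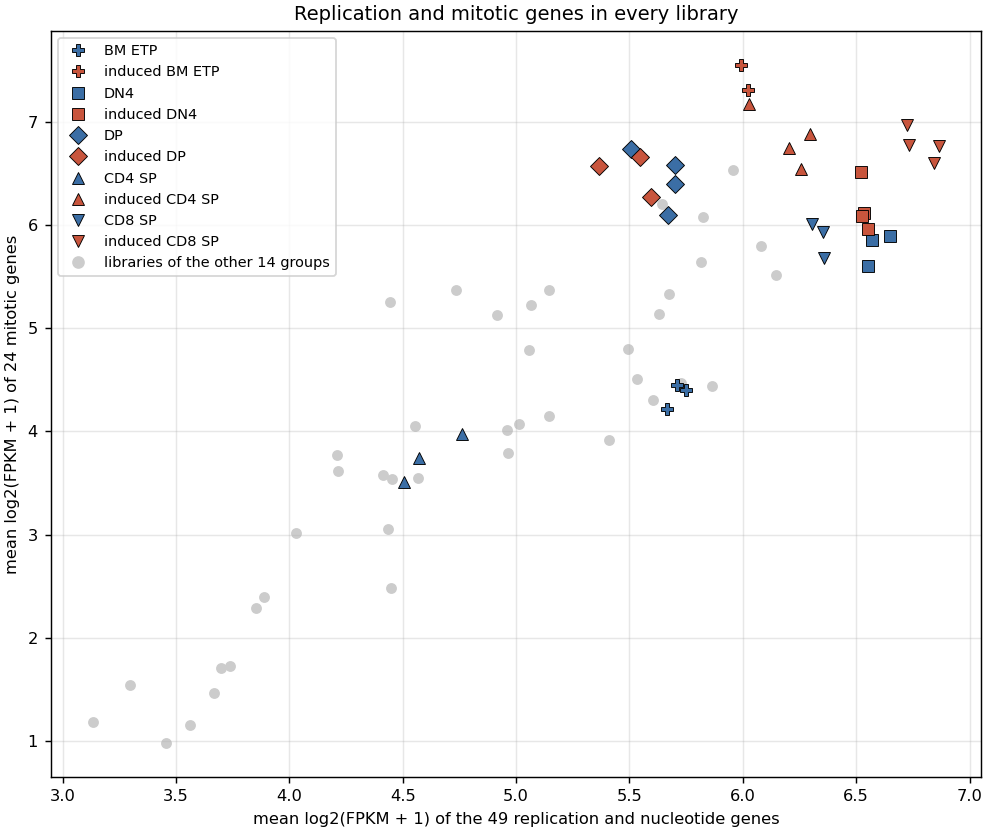
Mean log2(FPKM + 1) of the 49 genes (horizontal axis) against that of 24 mitotic genes (vertical axis), 1 point per library, with the groups named in the key in blue (natural) or red (induced). Natural DP libraries lie left of and above DN4 libraries; natural CD4 SP libraries lie low on both axes and induced CD4 SP libraries high on both; induced BM ETP libraries lie above natural ones with little shift to the right.

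Other nucleotide synthesis genes, a list of 31, were also called at these steps. From DN4 to DP, 22 fell and 1 rose, against 12.8% and 11.8% of all genes. Cad, which starts pyrimidine synthesis, fell from a mean of 26.2 to 1.93 FPKM (-3.37 ± 0.28, adjusted p = 1.1e-14), and Dctd, the deaminase of dCMP, from 20.8 to 0.0312 FPKM (-4.40 ± 0.54, adjusted p = 1.9e-09). The 1 that rose was Dck, the salvage kinase of deoxycytidine, from 61.3 to 157 FPKM (1.34 ± 0.20, adjusted p = 4.7e-07). From DP to CD8 SP, 18 of the 31 rose and 2 fell, against 10.7% and 13.2% of all genes. From DP to CD4 SP, 8 rose and 3 fell, against 13.2% and 13.5% of all genes, so the lower genes were no larger a share than the background. Samhd1, which breaks down deoxynucleotides, rose from 0.486 to 133 FPKM (6.52 ± 0.33, adjusted p = 1.4e-23), while Dck fell to 16.0 FPKM (-3.24 ± 0.20, adjusted p = 8.6e-20).

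The main question of the design is how induced cells compare with natural cells of the same stage. At DN4 and DN2, none of the 49 genes was called, with median log2 fold changes of -0.04 and 0.11. At DN4, 0.741% of all genes were called, and at DN2 1.5%, so few genes of any kind passed at these stages. At an unadjusted p below 0.05, limma gave 2 genes of the set at DN4 and 4 at DN2. Pcna had 2152, 2402 and 2432 FPKM in natural DN4 cells and 2155, 2038, 2143 and 2043 in induced ones, and the groups overlapped. With libraries weighted by their fit to the model, 2 genes were called at each stage.

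At CD4 SP the difference was broad. Induced CD4 SP cells had higher levels of 46 of the 49 genes than natural ones and a lower level of none, with a median log2 fold change of 1.55 and a background of 14% of all genes called higher and 12.4% lower. All MCM, licensing, helicase activation, polymerase, S phase and chromatin assembly genes of the set were called. Cdc45 had 73.0, 115, 87.6 and 105 FPKM in induced cells and 9.83, 12.0 and 10.3 in natural ones. The lowest induced library was far above the highest natural library (3.02 ± 0.40, adjusted p = 1.4e-08). E2f2 had 116, 117, 104 and 89.6 FPKM against 14, 13 and 13.3 (2.89 ± 0.27, adjusted p = 3.4e-13). Mcm10, which helps to open the helicase, had 34.1, 41.8, 66.9 and 57.3 FPKM against 11.4, 1.03 and 11.7 (2.85 ± 0.48, adjusted p = 3.0e-06). In all 3 genes the groups did not overlap. The exceptions were Fen1 (0.34 ± 0.56), Dscc1, part of an alternative clamp loader (0.67 ± 0.44), and Rrm2 (-0.13 ± 0.41).

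All 24 mitotic genes were higher in induced CD4 SP cells too, with a median of 3.10, and Cdc20 was at a mean of 207 against 4.70 FPKM (5.26 ± 0.44, adjusted p = 1.3e-14). Of the 32 other replication genes, 22 were higher and 1 lower, led by Ticrr, which brings Cdc45 to origins (3.62 ± 0.29, adjusted p = 2.1e-15). Samhd1 was lower in induced cells (18.9 against 133 FPKM, -2.83 ± 0.33, adjusted p = 7.9e-10) and Dck higher (2.37 ± 0.20, adjusted p = 3.3e-14). Stage markers moved with the result. Induced CD4 SP libraries held 723 to 865 FPKM summed over the 8 DP stage markers, against 141 to 163 in natural ones. They held 298 to 337 FPKM over the 7 mature single positive markers, against 1921 to 2097, and no gene of either list was at 0 throughout. The part of this in the result was not tested. Fitted on the 2 groups alone, 27 genes were called.

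The change from DP to CD4 SP itself differed between induced and natural cells. In a test of that difference, 37 of the 49 genes were called, all with a more positive change in induced cells (median 1.70), against 9.65% of all genes called in that direction and 7.69% in the other. Mcm10 differed by 3.44, E2f2 by 2.96, Gins2 by 2.61 and Cdc45 by 2.42 on the log2 scale. For Gins2, natural cells went from 46.8 to 74.4 FPKM in DP to 11.3 to 13.7 in CD4 SP. Induced cells went from 57.9, 52.9 and 46.6 FPKM in DP to 58.2, 77.6, 66.5 and 73.2 in CD4 SP. All 24 mitotic genes were called in the same test (median 2.89). Fitted on these 4 groups alone, 24 of the 49 genes were called.

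At CD8 SP, where natural cells already had high levels, induced cells were higher in 12 genes and lower in none, with a median of 0.45. Among all genes, 5.63% were called higher and 5.01% lower. The 12 were Mcm5, Mcm6, Cdc45, Gins2, Rfc2, Pola2, Prim2, Pold1, Lig1, Rpa2, Tk1 and E2f2. Lig1, the ligase that joins lagging strand fragments, had 438, 512, 409.6 and 453.5 FPKM in induced cells and 201, 196 and 219.5 in natural ones. Every induced library was far above every natural one (1.13 ± 0.27, adjusted p = 0.0025). Gins2 had 157, 133, 139 and 149 FPKM against 64.2, 66.9 and 91.4 (0.97 ± 0.17, adjusted p = 3.0e-05), and Cdc45 152, 165, 149.8 and 138 FPKM against 62.7, 65.8 and 63.7 (1.22 ± 0.40, adjusted p = 0.034). Both pairs of groups were separate. Without natural CD8 SP replicate 1, 5 genes were called, and 7 without replicate 2. Quantile normalization left 5 calls, and library weights gave 20. Induced CD8 SP libraries had 115 to 139 FPKM over the mature single positive markers, against 615 to 666, and 989 to 1106 over the DP stage markers, against 1187 to 1403. The part of these in the result was not tested.

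The change from DP to CD8 SP differed between induced and natural cells in 8 genes, all more positive in induced cells, against 4.09% of all genes called in that direction and 3.24% in the other. They were Mcm5, Cdt1, Gins2, Pola2, Pold2, Lig1, Rpa2 and Dut. Cdt1 differed most (1.85 ± 0.35, adjusted p = 0.00012), and its 2 DP groups already differed, as described below. Lig1 differed by 1.37 ± 0.39 (adjusted p = 0.016) and Gins2 by 1.20 ± 0.25 (adjusted p = 0.00045). With libraries scaled to equal totals or quantile normalized, 4 genes were called. None of the 24 mitotic genes was called by limma in this test (median 0.86).

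Thymic ETP cells showed the opposite direction. Induced thymic ETP cells had lower levels of 27 genes and higher levels of none, with a median of -1.12, and all 49 estimates were below 0. Among all genes, 3.78% were called lower and 4.49% higher. All 6 MCM genes and 4 of 6 S phase regulators were called. Clspn had 1.41, 3.95 and 2.85 FPKM in induced cells and 12.3 and 15.2 in natural ones (-2.04 ± 0.39, adjusted p = 0.00016). Rfc4, a clamp loader subunit, had 16.7, 18.4 and 25.8 FPKM against 85.6 and 83.2 (-2.03 ± 0.37, adjusted p = 6.8e-05). E2f2 had 4.18, 6.54 and 8.30 FPKM against 29.7 and 18.7 (-1.79 ± 0.32, adjusted p = 5.3e-05). In each of these genes the groups were separate. Of the 24 mitotic genes, 18 were lower in induced cells, Bub1, a checkpoint kinase of mitosis, from 28.8 to 5.78 FPKM (-2.70 ± 0.52, adjusted p = 0.00017). Natural thymic ETP libraries held 1124 to 2003 FPKM over 8 dendritic markers and induced ones 4.0 to 11.7, where H2-Eb1, Siglech and Xcr1 were at 0. Mature B libraries held 8941 to 15554 FPKM over this list, so its sum is not particular to dendritic cells. The mature single positive markers summed to 821 to 921 FPKM in natural and 1518 to 1727 in induced libraries, and the DP stage markers to 191 to 256 and 98.6 to 110.3. The part of these sums in the result was not tested. With 2 natural libraries, no gene was called when only these 2 groups were fitted.

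At the bone marrow ETP stage, genes of the set were called in both directions. Induced BM ETP cells were higher in 13 genes and lower in 7, with a median of 0.23. The shares of all genes were 14.4% higher and 16.8% lower, so the lower genes were no larger a share than the background. Mcm2, Mcm5 and Mcm6 were lower. Cdt1, with 72.3 and 99.6 FPKM against 186, 185 and 188, was lower (-1.13 ± 0.29, adjusted p = 0.0018), as was Rfc2 (-0.97 ± 0.22, adjusted p = 0.00038). Rrm1, Rrm2, Tyms and Dut were higher. Rrm2 had 127 and 93.3 FPKM in induced cells and 19.0, 19.1 and 15.6 in natural ones, with no overlap (2.55 ± 0.49, adjusted p = 2.4e-05). The E2F factors split. E2f2 had 42.4 and 45.6 FPKM against 5.45, 5.91 and 4.75 (2.82 ± 0.32, adjusted p = 9.1e-11), whereas E2f1 had 6.19 and 3.51 against 36.0, 35.9 and 25.4 (-2.54 ± 0.55, adjusted p = 0.00016). Prim2, the large primase subunit, had 170 and 203 FPKM against 36.8, 43.8 and 41.7 (2.17 ± 0.33, adjusted p = 2.7e-07). All 24 mitotic genes were higher, with a median of 2.97. Without induced BM ETP replicate 1, 13 of the 49 genes were called. Myeloid markers summed to 1209 to 1710 FPKM in induced libraries, and the part of the myeloid and B lineage sums given above in the result was not tested.

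Set against pro/pre-B cells, the population they came from, induced BM ETP cells differed in 7 genes, 6 higher and 1 lower, with a median of 0.19. Among all genes, 8.1% were called higher and 7.4% lower, so the share in the set was near the background. Tyms had 415 and 511 FPKM in induced cells and 138, 96.9 and 139 in pro/pre-B cells (1.90 ± 0.51, adjusted p = 0.0053). Prim2 was higher by 1.42 ± 0.33 (adjusted p = 0.0011) and Pola1, the catalytic subunit of polymerase alpha, by 1.03 ± 0.36 (adjusted p = 0.041). E2f2 was lower, with 42.4 and 45.6 FPKM against 113, 116 and 130.2 (-1.42 ± 0.32, adjusted p = 0.00070). Leaving out induced BM ETP replicate 1 or pro/pre-B replicate 2 left 4 calls, leaving out induced BM ETP replicate 2 left 3, and none remained when only these 2 groups were fitted. The 10 B lineage markers summed to 11026 to 11139 FPKM in induced BM ETP libraries and to 13091 to 14082 in pro/pre-B libraries. The part of this in the result was not tested.

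At DN1, induced cells were higher in 19 genes and lower in none, with a median of 0.68 and a background of 9.9% of all genes called higher and 8.93% lower. The 19 covered every role but chromatin assembly, with 4 of 6 S phase regulators and 4 of 9 polymerase and primase genes. Orc1, the largest subunit of the origin recognition complex, had 6.84, 6.01, 5.09 and 3.70 FPKM in induced cells and 0.0871, 0.126 and 2.16 in natural ones (2.00 ± 0.44, adjusted p = 0.00042). Prim2 had 40.4, 37.0, 44.4 and 41.7 FPKM against 11.2, 22.9 and 11.9 (1.42 ± 0.28, adjusted p = 7.2e-05). E2f8 was higher by 1.45 ± 0.33 (adjusted p = 0.00065). In these 3 genes the groups did not overlap. In natural DN1 cells, 2 libraries held the antibody gene Igkc at 1741 and 3446 FPKM, against 89.5 in the other, and without these 2 libraries 5 genes were called. The 8 natural killer and innate markers summed to 3799 to 4478 FPKM in natural DN1 cells and 1948 to 2463 in induced ones. The 8 dendritic markers, whose sum was highest in mature B cells, summed to 575 to 819.8 FPKM in natural and 18.4 to 86.0 in induced cells. The 10 myeloid markers summed to 35.7 to 248 and 0 to 26.8. The part of these sums in the result was not tested.

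At DN3, induced cells were lower in 2 genes, Cdt1 (-0.97 ± 0.29, adjusted p = 0.049) and Dut (-0.69 ± 0.19, adjusted p = 0.029), with a median of -0.28. Among all genes, 1.19% were called lower and 2.35% higher. Dut had 349, 358 and 320.5 FPKM in induced cells and 659 and 462 in natural ones. Both calls depended on single libraries: 1 gene was called without natural DN3 replicate 1 or induced replicate 1, none without induced replicate 3, and 4 without natural replicate 2. No gene was called when only the DN3 groups were fitted. At DP, 4 genes were lower and 1 higher in induced cells, with a median of -0.18. The shares of all genes were 5.53% lower and 4.83% higher, so the shares in the set were near the background. Cdt1 had 72.5, 30.0 and 53.2 FPKM in induced DP cells and 159, 113, 114 and 156 in natural ones, with no overlap (-1.43 ± 0.25, adjusted p = 3.1e-05). Pold2 had 57.4, 41.7 and 45.2 FPKM against 131, 63.8, 115 and 81.6 (-0.97 ± 0.22, adjusted p = 0.0016). Chaf1a was higher, with 12.8, 4.80 and 5.80 FPKM against 1.68, 3.60, 2.90 and 2.30 (1.20 ± 0.32, adjusted p = 0.0087). Without induced DP replicate 1, 3 genes were called, and 1 when only the 2 DP groups were fitted. Induced DP libraries held 2987 to 3789 FPKM over the DP stage markers and natural ones 4829 to 5269, and the part of this in the result was not tested.

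**Figure D4:**
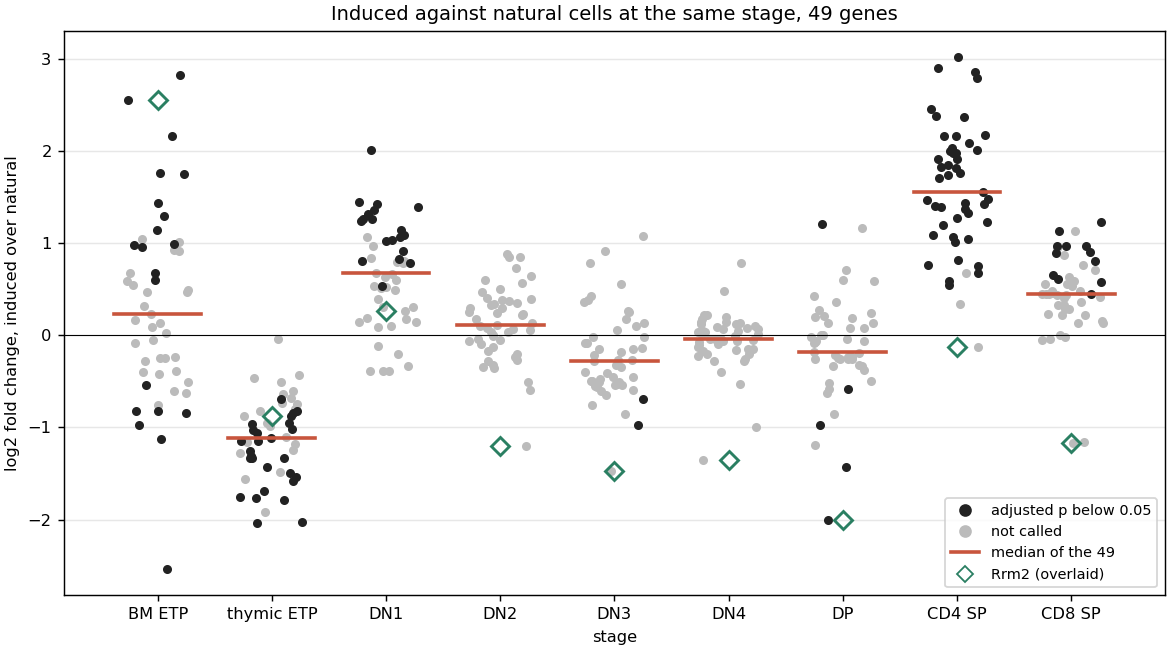
Log2 fold change of induced over natural cells (vertical axis) for each of the 49 genes at 9 stages, with genes past an adjusted p of 0.05 in black, the others in grey, the median of the 49 as a red bar and Rrm2 as a green diamond. Most genes lie above 0 at CD4 SP and below 0 at thymic ETP, and Rrm2 lies below the median from DN1 to CD8 SP.

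Ribonucleotide reductase makes deoxynucleotides and needs both its large subunit, Rrm1, and its small subunit, Rrm2. At DP, Rrm2 had 48.2, 51.4 and 82.2 FPKM in induced cells and 231, 251, 236 and 242 in natural ones. The highest induced library was far below the lowest natural one (-2.01 ± 0.41, adjusted p = 0.00039). Rrm1 had 134, 77.9 and 126 FPKM against 85.3, 128, 115 and 135, and the groups overlapped (-0.06 ± 0.21). At BM ETP, as given above, Rrm2 and Rrm1 were both higher in induced cells. At the other 7 stages Rrm2 was not called. Among them, its log2 fold changes were -1.21 ± 0.49 at DN2 (adjusted p = 0.28), -1.47 ± 0.49 at DN3 (0.078), -1.36 ± 0.41 at DN4 (0.12) and -1.17 ± 0.41 at CD8 SP (0.053). Induced Rrm2 libraries lay below all natural ones at DN2, DN4 and CD8 SP. The same held for 11.9%, 8.03% and 8.98% of all genes tested. At DN4, Rrm2 had 72.5, 82.2, 74.1 and 75.7 FPKM in induced cells against 255, 172 and 173. At CD8 SP it had 99.2, 114, 111 and 88.5 against 264, 233 and 203. At CD4 SP the levels overlapped, at 65.3 to 86.3 against 68.9 to 88.7 FPKM, while Rrm1 was at 155, 152, 207 and 194 against 35.2, 35.7 and 53.1 (2.08 ± 0.21, adjusted p = 4.5e-12).

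The ratio of Rrm1 to Rrm2 within a library, given as a description, was higher in every induced library than in every natural library at each stage from DN1 to CD8 SP. Both genes entered it: induced Rrm1 libraries lay above all natural ones at DN1, DN2, DN4, CD4 SP and CD8 SP, of which limma called DN1 and CD4 SP. At these stages 15.4%, 12.7%, 7.29%, 13.1% and 13.3% of all genes tested lay above in the same way. The ratio was 2.76 to 3.47 in induced against 1.42 to 2.49 in natural DN1 cells. It was 5.39 to 5.49 against 1.46 to 1.98 at DN2 and 4.45 to 7.07 against 1.00 to 3.71 at DN3. It was 2.77 to 3.31 against 0.813 to 1.15 at DN4 and 1.52 to 2.77 against 0.369 to 0.557 at DP. At CD4 SP it was 1.79 to 3.16 against 0.397 to 0.770, and at CD8 SP 1.78 to 3.02 against 0.766 to 0.969. The order was the other way in thymic ETP cells, at 2.06 to 3.07 in induced against 3.33 to 4.92 in natural cells, and in BM ETP cells, at 1.96 to 2.62 against 2.93 to 5.02. Among other replication genes, Uhrf1, which carries DNA methylation through replication, was lower in induced cells at DN2 (-1.53 ± 0.37, limma adjusted p = 0.015). It was also lower at DN3 (-1.43 ± 0.37, adjusted p = 0.020). At DP its change was -2.44 ± 0.31 (adjusted p = 6.7e-08) and at CD8 SP -1.78 ± 0.31 (adjusted p = 2.3e-05). Uhrf1 was not called lower at BM ETP, DN1 or CD4 SP, and its results at thymic ETP and DN4 are not given here.

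**Figure D5:**
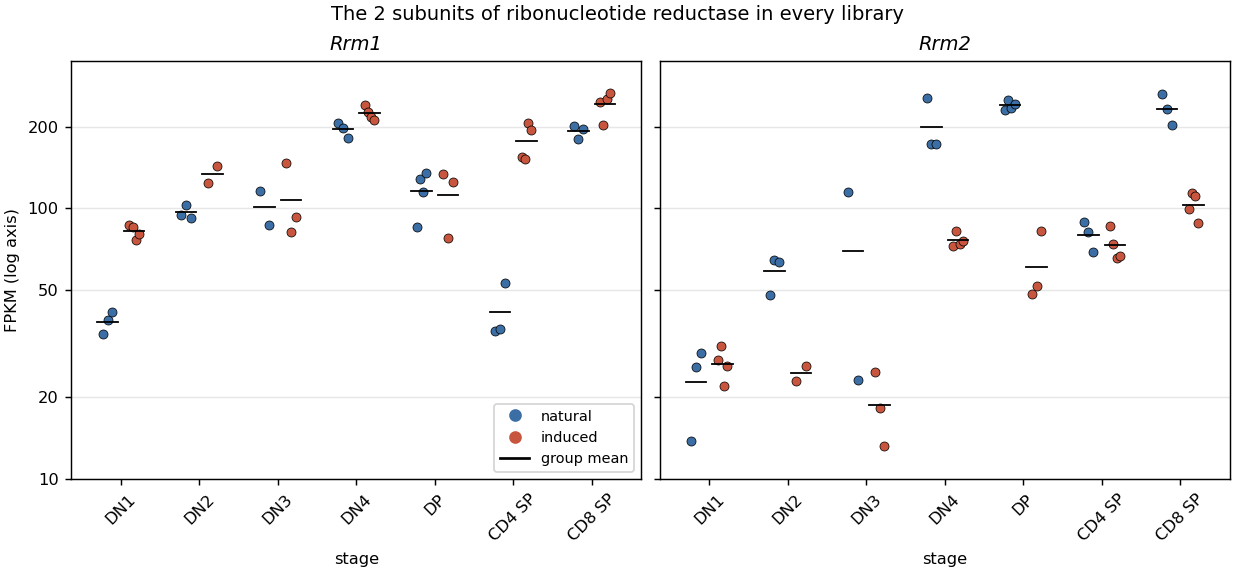
FPKM (log axis) of Rrm1 (left) and Rrm2 (right) in every natural (blue) and induced (red) library at 7 thymic stages, with bars at group means. Rrm1 libraries of induced cells overlap with the natural ones at DN3 and DP and lie above them at DN1, DN2, DN4, CD4 SP and CD8 SP, whereas induced Rrm2 libraries lie below the natural ones at DN2, DN4, DP and CD8 SP and overlap with them at DN1, DN3 and CD4 SP.

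The mean of 24 genes of G1 control and quiescence, of which 23 were tested, did not follow the set over the 24 groups (r = 0.14). This list mixes cyclins with inhibitors, which can cancel in a mean, so the value does not describe its single genes. Some members of the list moved at the steps above. Cdkn1b, the inhibitor p27, rose from DN4 to DP (3.32 ± 0.32, adjusted p = 1.7e-12), from a mean of 2.11 to 29.6 FPKM, and Ccnd2, a D-type cyclin, fell (-3.41 ± 0.26, adjusted p = 2.2e-16). In induced against natural CD4 SP cells, 10 of the 23 were higher and 5 lower, against 14% and 12.4% of all genes. Ccnd3 and Cdk6 were higher, by 2.48 ± 0.25 (adjusted p = 7.9e-12) and 2.40 ± 0.29 (adjusted p = 1.1e-09). Ccnd2 and Klf2, a factor of resting T cells that is also among the mature single positive markers, were lower, by -2.74 ± 0.26 (adjusted p = 5.3e-13) and -2.54 ± 0.42 (adjusted p = 2.9e-06).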

How the data were processed

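RNA-seq was done on poly(A) RNA of sorted mouse cells. The authors deposited 1 table of FPKM values for 76 libraries; per the submitters' processing notes, bcl2fastq, TopHat, Cufflinks 2.2.1, Cuffnorm and the build NCBIM37 were used. Parameters, annotation and library scaling are not given in the sources used here. Symbols came from a reference table and matched 86.7% of IDs; promoters came from RefSeq on another build (GRCm38.p6) and were matched by symbol.

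From these values, log2(FPKM + 1) was fitted with limma 3.58.1 (R 4.3.3), with 1 mean per group over all 24 groups, 75 libraries and 51 residual degrees of freedom, and a trended, robust variance. Genes with at least 1 FPKM in 2 or more libraries entered (17416). P-values were two-sided and Benjamini-Hochberg adjusted within each of 18 comparisons, at a threshold of 0.05. A fold change on this scale understates changes of low genes. Fits were tested on simulated data, where the share of false calls lay above the threshold and small changes were often missed, so counts of calls are approximate. Tables were prepared in Python 3.11.15 with pandas 2.3.3.

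The 49 genes, the pathway lists and the markers were chosen with earlier results of these data known. Estimates were given for the 3 highest and 3 lowest called genes per comparison with non-overlapping groups and a mean of at least 5 FPKM. Values in every library were printed for part of these genes. Some further genes (Rrm1 and Rrm2 outside that rule, Pcna at DN4, Cdt1 in mature B cells, and genes of the step differences, where the rule could not be applied) were chosen after their values were seen. Alternatives were another pseudocount (0.1), no filter, equal totals, quantile normalization, library weights, a replicate block, only the compared groups, and each library left out. Some genes with a pattern like that of the set are not reported here.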

Additional observations from a re-analysis of the deposited data

Results flagged for a closer look

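In groups of 4 libraries, a library was singled out where its gap to the next exceeded Dixon's limit. The test was run on 37 sets of 4 values, each a gene or the mean of the 49 genes in 1 group. In 4 sets a library was singled out, against 1.9 expected if chance singles out 1 in 20. The mean of the 49 genes reached 4.57 in 1 HSC library, above the other 3. In mature B replicate 3, Cdc45 was at 8.46 FPKM and Rrm2 at 8.75 FPKM, above the other 3 libraries. E2f1 was at 1.31 FPKM in MPP replicate 3, below the other 3 libraries.

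The change from DP to CD4 SP differed between induced and natural cells for 37 of the 49 genes in limma's test of the difference. The log2 differences were 3.44 for Mcm10, 2.42 for Cdc45, 2.61 for Gins2 and 2.96 for E2f2. The change from DP to CD8 SP differed for 8 genes, by 1.20 for Gins2 and 1.37 for Lig1.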

How the results depend on the processing

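Counts of called genes moved by over 1.5 times in these settings. With a pseudocount of 0.1, 3 genes were called for induced against natural DP and 4 for induced BM ETP against pro/pre-B. Without a filter, 1 was called at DN3. Equal library totals left 1 at DN3 and 4 for the CD8 SP step difference. Quantile normalization left 1 at DN3, 5 at CD8 SP and 4 for the CD8 SP step difference. Library weights gave 2 at DN2, 0 at DN3, 2 at DN4, 3 at DP and 20 at CD8 SP. With only the compared groups fitted, and so fewer libraries to estimate the spread, 5 genes were called for MPP against HSC, 0 for DN4 against DN3, 11 for CD4 SP against DP, 11 for CD8 SP against DP, and 24 for the CD4 SP step difference. For induced against natural cells that fit gave 0 at thymic ETP, 0 at DN3, 2 at DN4, 1 at DP, 27 at CD4 SP and 20 at CD8 SP, and 0 for induced BM ETP against pro/pre-B. Without natural DN1 replicates 1 and 2, a choice made after seeing the data, 5 genes were called at DN1. For the other moved counts the cause was not tested.

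With each library left out in turn, counts ranged from 7 to 13 for MPP against HSC, 1 to 20 for DN4 against DN3, 28 to 33 for DP against DN4, 27 to 32 for CD4 SP against DP, 17 to 25 for CD8 SP against DP and 38 to 41 for mature B against pro/pre-B. For induced against natural cells they ranged from 13 to 18 at BM ETP, 19 to 25 at thymic ETP, 14 to 21 at DN1, 0 to 4 at DN3, 3 to 6 at DP, 40 to 45 at CD4 SP and 5 to 10 at CD8 SP, and stayed at 0 at DN2 and DN4. They ranged from 3 to 8 for induced BM ETP against pro/pre-B, 34 to 39 for the CD4 SP step difference and 7 to 9 for the CD8 SP one. Where 1 library of a group was left, it was assumed to vary like the other groups.

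The median over the 49 genes changed sign at DN4 (0.0658) and DP (0.0394) with equal totals and at DP (0.0327) with quantile normalization. Of the 49 results for single genes chosen by the rule above, 29 lost a call in at least 1 setting, and 0 reversed. In 13 of the 29, the call was lost only in the fit of the compared groups. With the replicate number as a block, counts were 11 for MPP against HSC, 36 for DP against DN4, 46 at CD4 SP and 10 at CD8 SP, and no count moved by over 1.5 times. Whether same-numbered libraries were paired could not be settled, because their deviations from group means were taken in groups of 2 to 4 libraries. With 3 or more pairs, the highest correlation of a pair's deviations was 0.131, and the lowest in that comparison 0.025. In DP against DN4 and in induced against natural DP, all 3 numbers correlated best with their own, a hint from the data only. Depth limits genes near 1 FPKM most.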

Other observations

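Samhd1, which breaks down deoxynucleotides, was lower in induced than in natural CD8 SP cells, at a mean of 1.08 against 29.7 FPKM (-3.99 ± 0.33 SE, limma adjusted p = 1.0e-14). Rpa3, the small subunit of the single-strand binding protein, was higher there, at 197 against 70.5 FPKM (1.46 ± 0.23, adjusted p = 1.5e-06). In induced BM ETP cells against pro/pre-B cells, Myc and Mycn, transcription factors of cell growth, were higher, by 1.99 ± 0.40 (adjusted p = 0.00014) and 2.56 ± 0.46 (adjusted p = 2.4e-05), while Ccnd2 was lower (-4.02 ± 0.30, adjusted p = 2.2e-16). Adss, an enzyme of AMP synthesis, was higher in induced cells at DN2 (1.07 ± 0.25, limma adjusted p = 0.0086). It was also higher at DN3 (0.95 ± 0.25, adjusted p = 0.018) and DN4 (0.83 ± 0.21, adjusted p = 0.031). Adss was not called higher at thymic ETP or DP, and its results at BM ETP, DN1, CD4 SP and CD8 SP are not given here.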
